A study of Rattus norvegicus with 12 samples.

Results

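Cyclic nucleotide phosphodiesterases were followed in the arcuate nucleus (ARC), a hypothalamic nucleus that senses nutrients and hormones and regulates appetite. These enzymes hydrolyse cAMP and cGMP, the second messengers made by adenylyl and guanylyl cyclases, and so set how long and how far a signal from a G protein-coupled receptor or from nitric oxide spreads inside a cell. cAMP acts mainly through protein kinase A, Epac exchange factors and ion channels, and cAMP signalling in hypothalamic neurons and glia lies downstream of many neuropeptide and monoamine receptors. The families differ in substrate and control: PDE4 and PDE7 enzymes hydrolyse cAMP, PDE1 enzymes are switched on by calcium and calmodulin and hydrolyse both messengers, PDE2A is stimulated by cGMP, PDE3B is inhibited by cGMP, and PDE10A hydrolyses both.

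The 9 genes described are Pde4a, Pde4b, Pde4d, Pde1a, Pde1c, Pde2a, Pde3b, Pde7b and Pde10a. Every probe set that the platform annotation gives to one of these symbols alone was taken, which made 14 probe sets of 31042 and 9 genes of 14217. Pde4a, Pde1a, Pde2a, Pde3b and Pde7b had 1 probe set each, and the other 4 genes had several, of which the one with the highest mean over the 12 arrays was called the main probe set. The genes were picked with earlier results of these arrays known, and Pde4a was selected by the study on these same arrays. The group difference of Pde4a is therefore a description, with no test, and the levels that ranked the probe sets are no result either.

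The arrays held RNA from the laser-captured ARC of 12 male Wistar rats aged 3 months, 1 rat per array. The 6 recuperated rats were born to dams given a low-protein diet with 8% protein in pregnancy and were suckled by control dams. The 6 control rats were born to and suckled by control dams on a diet with more protein. Both groups were formed on postnatal day 3 and later received standard chow. Recuperated litters were cut to fewer pups, all male, than the mixed-sex control litters, to raise their nutrition. The groups therefore differ in the diet of the dam, in litter size and in the sex of the litter mates. The comparison asks which phosphodiesterases the adult ARC expresses and whether early nutrition leaves their mRNA at another level. Laser capture collects all cells in the outlined area, so fewer cells of a type and less RNA per cell cannot be told apart.

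Levels are log2 signals minus the median of the same array over all probe sets, so that 0 is a typical probe set and 1 is a doubling. They depend on the probes as well as on the mRNA. They were compared between arrays for 1 probe set at a time and never between probe sets, and a level above 0 is not a detection call. Over all probe sets, 40.3% lay above the array median on all 12 arrays, and of the 14 member probe sets 5 did, each the main one of its gene.

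Recuperated array 4 stood apart from the other 11 in the levels of cell type markers, and whether its cells differed was not measured. The mean level of 8 measured ARC neuron markers was 0.72 on this array and 3.03 to 3.36 on the other recuperated arrays, against 3.17 to 3.34 on the control arrays. The orexigenic peptide gene Npy was at 0.91 on it and at 4.32 to 5.50 on the other recuperated arrays. On the control arrays Npy was at 4.62 to 5.33. Pomc, another defining ARC gene, was below the array median on all 12 arrays. The study reports high Pomc expression in the dissected tissue by RT-PCR, a separate measurement of RNA. The mean of 6 markers of the neighbouring ventromedial nucleus (VMN) was 3.15 on recuperated array 4 and 0.15 to 1.15 on the other recuperated arrays, against 0.31 to 1.51 on the control arrays. That of 5 tanycyte and ependyma markers was 0.59 on it and 2.41 to 2.90 on the other recuperated arrays, against 1.99 to 2.72 on the control arrays. Array medians of the deposited log2 values ran from 6.23 to 6.30 in recuperated rats and from 6.21 to 6.27 in controls. The median correlation of an array with the others was lowest for recuperated array 4, at 0.966. By this measure it hardly stood apart, since recuperated array 5 was at 0.968. Group differences are therefore given with and without this array.

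Pde4a encodes a cAMP-specific enzyme of the PDE4 family, the family inhibited by rolipram. Its transcripts start at several promoters, and 4 of them are in the RefSeq promoter table (rat assembly GRCr8, a short stretch around each start). Cyclic AMP can act on genes through CREB, whose full palindromic site is TGACGTCA and whose short site is TGACG. The 3 stretches that follow hold the short site, the simplest motif by which a promoter can carry a cAMP response. Each is read 5′ to 3′ along the gene, with TGACG or its complement CGTCA in capitals.
Pde4a, promoter 1 of 4, chr8:27966951-27967005, plus strand: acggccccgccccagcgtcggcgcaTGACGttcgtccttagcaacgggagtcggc
Pde4a, promoter 3 of 4, chr8:27999370-27999424, plus strand: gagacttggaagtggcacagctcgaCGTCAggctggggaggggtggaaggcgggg
Pde10a, promoter 1 of 2, chr1:54765743-54765872, minus strand: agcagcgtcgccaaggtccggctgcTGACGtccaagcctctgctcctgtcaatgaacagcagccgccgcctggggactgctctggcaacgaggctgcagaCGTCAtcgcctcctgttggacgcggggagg
The table held 17 promoters for 7 of the 9 genes. The short site was searched on both strands and was in 5 of the 17 (29.4%), among them 2 of Pde4d, against 21.2% of all 33469 promoters of the same length. The full site, which contains the short site, was in 0 of 17, against 1.83% of all promoters. A match is a description of the letters and not a measured site.

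The Pde4a probe set was close to the array median in both groups. It lay between -0.06 and 0.74 in recuperated rats, with a median of 0.36, against 0.24 to 0.55 with a median of 0.33 in controls. The groups overlapped throughout: recuperated array 1 held the highest value and recuperated array 2 the lowest, with all 6 control arrays between them. The means were 0.34 ± 0.27 in recuperated rats and 0.35 ± 0.11 in controls (SD, n = 6 each), a log2 difference of -0.01. The difference was -0.02 without recuperated array 4, ranged from -0.09 to 0.07 as each array was left out, and was 0.01 without the subtraction of array medians, so it has no settled sign.

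The table of higher genes in the study lists another probe set as Pde4a. The annotation used here gives that probe set no symbol, so it is not a member by the rule, and whether it measures Pde4a was not tested. Its level was 2.63 to 3.58 in recuperated rats, with a median of 2.92, against 2.45 to 2.84 with a median of 2.56 in controls. Every control array was exceeded by recuperated arrays 3, 4, 5 and 6, and recuperated arrays 1 and 2 lay within the range of the controls. The means were 2.98 ± 0.35 in recuperated rats and 2.58 ± 0.14 in controls (SD, n = 6 each), a log2 difference of 0.39, or 1.31-fold. The highest value was that of recuperated array 4, and without it the difference was 0.27, or 1.21-fold. Since this probe set was selected on these arrays, its values are no test of a change. The study also chose Pde4a for measurement by RT-PCR and reports that its expression there was very low. The increase was therefore left without that check.

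Over the 12 arrays, Pearson's r between the 2 probe sets called Pde4a was 0.14 and Spearman's rho 0.32. Both values are a description, because the study selected Pde4a on these arrays through the listed probe set. With the 2 arrays farthest from the median left out, recuperated arrays 1 and 2, r was 0.25. Within the groups r was 0.11 over the 6 recuperated arrays and 0.77 over the 6 control arrays. Array 4 of the controls held the highest control value of both probe sets.

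**Figure D1:**
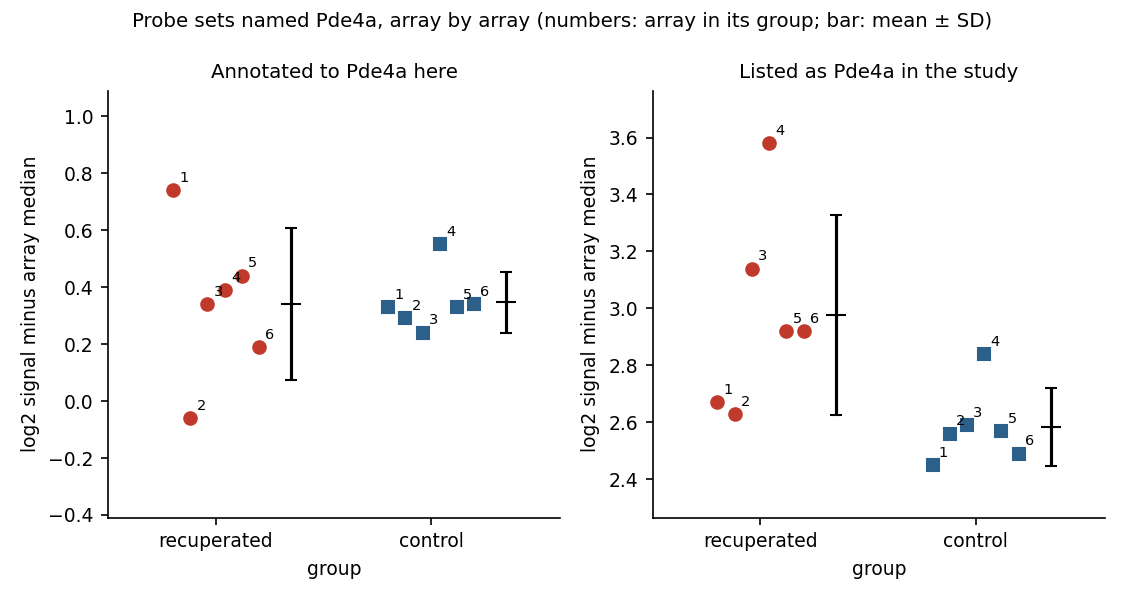
Level (log2 signal minus array median) of the probe set annotated to Pde4a (left) and of the probe set that the study lists as Pde4a (right), for 6 recuperated and 6 control arrays, numbered within their group, with mean ± SD beside them. Both panels span the same number of log2 units. The groups overlap throughout on the left, with means of 0.34 in recuperated and 0.35 in control rats, and 4 recuperated arrays lie above every control on the right, led by recuperated array 4 at 3.58.

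Across all genes the background of calls was low. With limma and Benjamini-Hochberg adjustment, 0 of 31042 probe sets (0%) differed between recuperated and control rats, with 1071 at an unadjusted P under 0.05, and the methods' t-test also gave 0 after adjustment. The study took genes forward at 1.3-fold with P under 0.05 only if every one of its summaries of the arrays met it. On the deposited values alone, with that threshold applied to limma's P, 1.20% of probe sets (371) were higher and 1.27% (395) lower in recuperated rats. That split depends on the scaling: on values whose array medians were not subtracted it was 434 higher and 302 lower, and after quantile normalization 447 higher and 313 lower. In 0.139% of probe sets (43) the 2 groups did not overlap.

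None of the 13 probe sets of the 8 genes other than Pde4a passed any of these rules: 0 were higher, 0 were lower, and in 0 did the groups separate. They had log2 differences of -0.16 to 0.28. Their adjusted p was 0.999 throughout, their smallest limma P was 0.261, and their smallest exact two-sided permutation p was 0.32, where the design allows 0.00216. Of the 14, 9 had a positive difference and 5 a negative one, with a median of 0.037, against a median of -0.028 and 43.2% positive over all probe sets. The intervals were wide. Every one of the 13 intervals that limma gave at 95% took in 0, and 13 of the 13 reached beyond 1.3-fold in at least 1 direction.

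**Figure D2:**
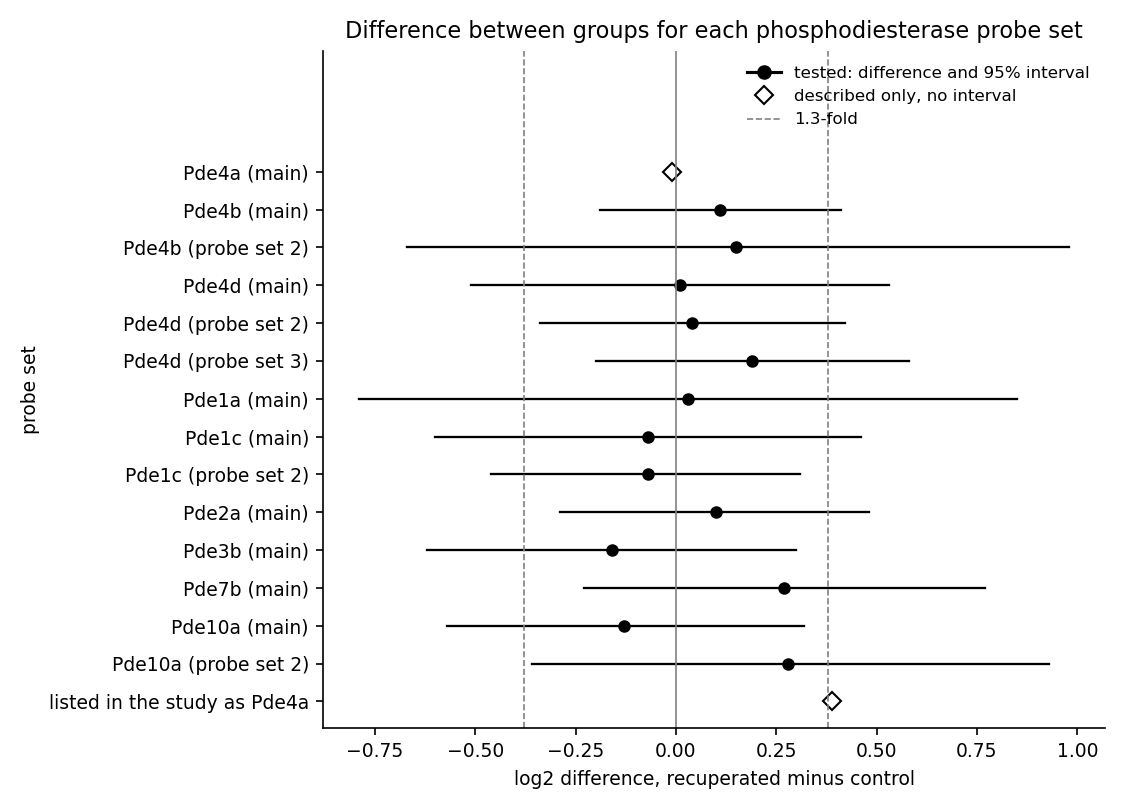
Log2 difference, recuperated minus control, for the 14 phosphodiesterase probe sets and for the probe set listed in the study as Pde4a. Dots and lines are limma estimates with 95% intervals (6 arrays per group), open diamonds are described without an interval, and dashed lines mark 1.3-fold. All 13 intervals include 0.

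Pde4b, another cAMP-specific PDE4 gene with neuronal and immune cell expression, was above the array median on all 12 arrays at its main probe set. Levels ran from 2.10 to 2.55 in recuperated rats, with a median of 2.22, against 1.97 to 2.47 with a median of 2.12 in controls. Recuperated arrays 2 and 4 exceeded every control, and the other 4 lay among them. The log2 difference was 0.11 (95% interval -0.19 to 0.41, limma adjusted p = 0.999), and 0.06 without recuperated array 4. The second Pde4b probe set behaved otherwise: it lay from -0.60 to 0.79 in recuperated rats, against -1.91 to 0.52 in controls, with a difference of 0.15 (-0.67 to 0.98), or 0.04 without recuperated array 4, -0.01 without recuperated array 1 and -0.19 without control array 6. Its lowest value, -1.91, came from control array 6 alone, which at the main probe set was at 2.00.

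Pde4d, whose PDE4D proteins bind beta-arrestin and A-kinase anchoring proteins, had 3 probe sets. At the main one the levels were 0.18 to 1.33 in recuperated rats, with a median of 0.54, against 0.04 to 1.04 with a median of 0.78 in controls. Each group held both high and low arrays, and the difference was 0.01 (-0.51 to 0.53). The other 2 probe sets differed by 0.04 (-0.34 to 0.42) and 0.19 (-0.20 to 0.58). Without recuperated array 4 the 3 differences were -0.01, -0.05 and 0.14.

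Pde1a encodes a calcium- and calmodulin-activated enzyme that prefers cGMP, and it had the widest range of the member probe sets over all 12 arrays. Its level ranged over 2.85 log2 units, a range that was exceeded by 2.0% of all probe sets. The second Pde4b probe set came next, at 2.70. Without recuperated array 4, Pde1a ran from -0.24 to 1.66, a narrower range than that of the second Pde4b probe set. The level of Pde1a was -0.24 to 2.61 in recuperated rats, with a median of 1.14, against 0.56 to 1.66 with a median of 0.78 in controls. The highest value was that of recuperated array 4, and the lowest values were those of recuperated arrays 1 and 3, so that the recuperated arrays surrounded the controls on both sides. The SD was 0.98 in recuperated rats and 0.47 in controls, and the means were 1.03 in recuperated rats and 0.99 in controls. The difference was 0.03 (-0.79 to 0.85), and -0.28 without recuperated array 4.

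Pde1c, another calmodulin-activated gene, whose product hydrolyses cAMP and cGMP alike, was below the array median on all 12 arrays at both of its probe sets. The main one lay at -3.58 to -1.96 in recuperated rats, against -3.34 to -2.44 in controls, and the other at -3.63 to -3.20 in recuperated rats, against -3.83 to -2.78 in controls. Recuperated array 5, at -1.96, was the only one above -2.44 at the main probe set, and it was at -3.34 at the other. Both differences were -0.07, and they were 0.03 and -0.05 without recuperated array 4.

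Pde2a, the cGMP-stimulated enzyme that links cGMP to the breakdown of cAMP, was above the array median on all 12 arrays. Levels were 0.94 to 2.09 in recuperated rats, with a median of 1.27, against 1.09 to 1.52 with a median of 1.38 in controls. Recuperated arrays 4 and 2 were the highest and recuperated array 5 the lowest. The difference was 0.10 (-0.29 to 0.48), and -0.04 without recuperated array 4.

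Pde3b, the cGMP-inhibited enzyme through which insulin lowers cAMP in adipocytes, was likewise above the median on every array. Levels were 0.60 to 2.09 in recuperated rats, with a median of 1.65, against 1.32 to 1.88 with a median of 1.74 in controls. Recuperated array 1 lay below all other arrays and recuperated array 5 above them. The difference was -0.16 (-0.62 to 0.30), and -0.19 without recuperated array 4.

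Pde7b, a cAMP-specific gene insensitive to rolipram, lay close to the array median and was above it on 5 arrays. Recuperated levels were -0.35 to 1.09 with a median of 0.02, against -0.52 to 0.34 with a median of -0.03 in controls. Recuperated arrays 1 and 5 lay above every control and the other 4 among them. The difference was 0.27 (-0.23 to 0.77), the largest among the main probe sets, with limma P = 0.261 and an exact permutation p = 0.32. It was 0.35 without recuperated array 4, 0.10 without recuperated array 5, 0.18 without recuperated array 1 or control array 6, and at most 0.39 as each array was left out, and it was 0.10 with arrays weighted by quality.

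Pde10a, best known as the dual-substrate enzyme of striatal medium spiny neurons, was above the median on all 12 arrays at its main probe set. Levels were 2.15 to 3.35 in recuperated rats, with a median of 2.74, against 2.59 to 3.39 with a median of 2.84 in controls. Recuperated array 1 was the lowest of all, and the highest value was that of control array 3. The difference was -0.13 (-0.57 to 0.32), and -0.23 without recuperated array 4. The second probe set differed by 0.28 (-0.36 to 0.93), the opposite sign, and was above the median on 3 arrays. That difference was 0.18 without recuperated array 4, 0.09 without recuperated array 5 or control array 5, 0.44 without control array 1, and 0.03 with arrays weighted by quality. Of 5 measured marker genes of medium spiny neurons, Ppp1r1b and Rgs9 were above the array median on all 12 arrays. Drd2 and Adora2a were below it on all 12, and Drd1 was above it on 3. The mean level of the list was -0.13 to 0.20 in recuperated rats, against -0.01 to 0.50 in controls.

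**Figure D3:**
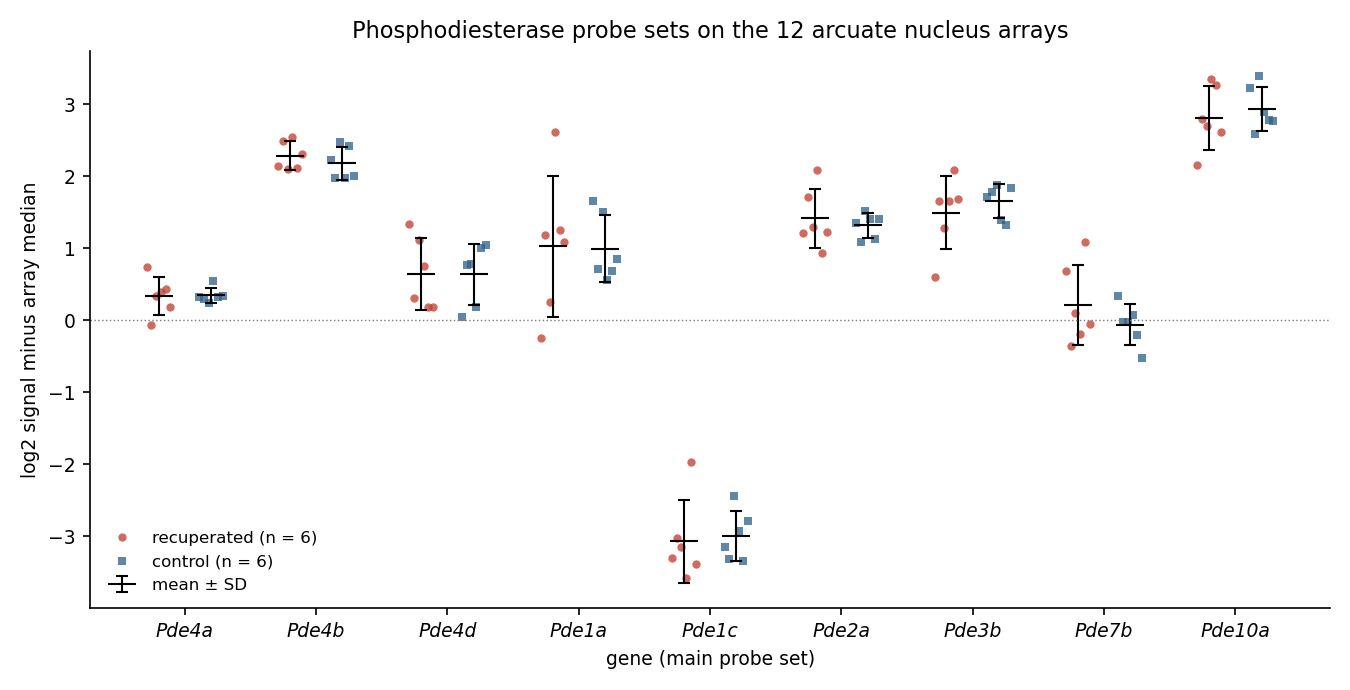
Level of the main probe set of each gene (log2 signal minus array median) on 6 recuperated arrays (circles) and 6 control arrays (squares), with mean ± SD. The groups overlap for every gene. Pde4b, Pde4d, Pde2a, Pde3b and Pde10a are above 0 on all 12 arrays, Pde1c is below 0 on all 12, and Pde1a has the widest range, from -0.24 to 2.61. Heights of different genes are not comparable.

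Probe sets of 1 gene were compared across arrays. Over the 6 pairs within the 4 genes with several probe sets, r ran from -0.08 to 0.62, and 0 of the 6 passed an adjustment made over 7 pairs, in which the pair called Pde4a was counted. The closest pair was that of Pde10a (r = 0.62, permutation p = 0.0317, adjusted p = 0.222; rho = 0.55, permutation p = 0.0699, adjusted p = 0.245; r = 0.73 without recuperated array 1 and control array 3, and 0.86 within the 6 recuperated and 0.48 within the 6 control arrays). The Pde4b probe sets gave r = 0.05 (permutation p = 0.888; rho = -0.02, permutation p = 0.94), the Pde1c probe sets r = 0.45 (permutation p = 0.14; rho = 0.44, permutation p = 0.156).

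Among the main probe sets, Pde1a and Pde10a moved together across animals. Of 36 pairs of the 9 genes, 6 had an unadjusted permutation p under 0.05, and Pde1a with Pde10a was the only one to pass Benjamini-Hochberg adjustment (r = 0.83, permutation p = 0.00104, adjusted p = 0.0374). By rank the pair gave rho = 0.76 (permutation p = 0.00653, adjusted p = 0.235), and 0 of 36 pairs passed by rank. It was 0.85 with the group means removed (adjusted p = 0.145), 0.83 without recuperated array 4, and 0.71 without recuperated arrays 1 and 4, the 2 farthest from the median of Pde1a. Within each group of 6 arrays, r was 0.86 in recuperated rats and 0.86 in controls. Both genes were lowest on recuperated array 1, and the 4 highest arrays were the same for both: recuperated arrays 4 and 5 and control arrays 1 and 3.

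Other measures were set beside Pde1a on single arrays. The VMN marker mean was 3.15 on recuperated array 4, where Pde1a was 2.61, and 0.15 on recuperated array 1, where Pde1a was -0.24, and among the controls it was highest on arrays 1 and 3, at 1.51 and 1.12, as was Pde1a. Recuperated array 5 went otherwise, with Pde1a at 1.26 and a VMN mean of 0.51. Of the 6 VMN markers, 3 were above the array median on all 12 arrays and 0 below it on all 12. The range of their mean was 0.15 to 3.15 in recuperated rats, against 0.31 to 1.51 in controls. Nr5a1, which defines VMN neurons, was at 2.60 on recuperated array 4 and at -2.91 to -0.49 on the other recuperated arrays, against -2.30 to -0.28 on the control arrays. The study reports, with data not shown, that Nr5a1 was not detected in its captured ARC tissue. Whether that check covered the rat of recuperated array 4 is not stated. The log2 excess of the 3′ over the 5′ control probe set of beta-actin, a sign of RNA length, was 1.96 on recuperated array 4 and 1.26 on recuperated array 1, with a range of 1.04 to 1.96 in recuperated rats, against 1.25 to 1.72 in controls. The lowest excess, 1.04, was on recuperated array 3, where Pde1a was 0.26. The part of tissue content and RNA length in the variation of Pde1a was not tested.

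**Figure D4:**
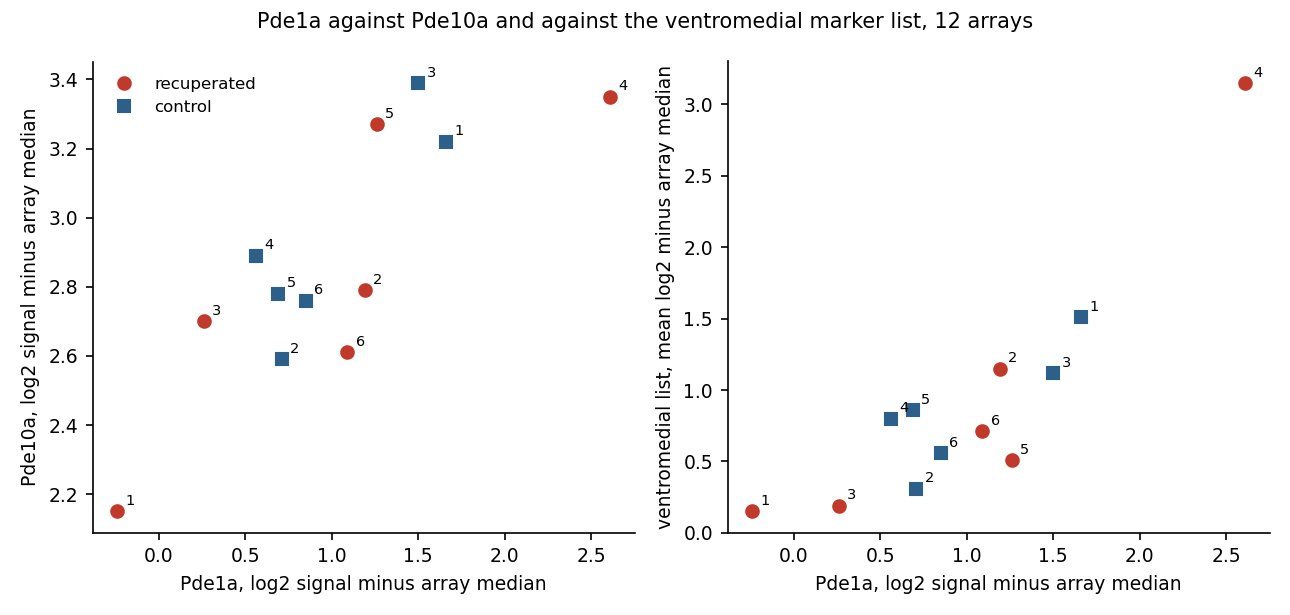
Level of Pde1a (horizontal axis, log2 signal minus array median) against that of Pde10a (left) and against the mean level of 6 VMN markers (right), 1 point per array, numbered within the recuperated (circles) and control (squares) groups. Pde1a and Pde10a have r = 0.83 over 12 arrays, and recuperated array 4, at 2.61 for Pde1a, has the highest VMN mean, 3.15.

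The genes most like Pde4a and Pde1a in pattern were sought among 9046 genes with a main probe set that exceeded the array median on 6 or more arrays. Pearson's r over the 12 arrays is given as a description. For Pde4a these were Pex6 (r = 0.92, 0.97 without recuperated array 4), a peroxisome assembly ATPase, Stk39 (0.90 and 0.90), a kinase of cation-chloride cotransporters, and Bcan (0.90 and 0.92), the proteoglycan brevican. For Pde1a they were Appbp2 (0.97 and 0.96), which binds the amyloid precursor protein, Nf1 (0.94 and 0.92), the Ras regulator neurofibromin, and Micu3 (0.94 and 0.91), a regulator of the mitochondrial calcium uniporter. These are the 3 highest of 9046 values for each gene, all points share their arrays, and nothing is read from them about function.

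Of 14 other cyclic nucleotide phosphodiesterase genes, 12 were measured, with 15 probe sets, and 0 passed the threshold in either direction. Above the array median on all 12 arrays were the main probe sets of Pde1b, also calmodulin-activated, of Pde8b, a high-affinity cAMP enzyme, and of Pde9a, a high-affinity cGMP enzyme. Pde9a lay at 2.22 to 2.54 in recuperated rats, against 2.15 to 2.79 in controls. On 0 arrays above the median were 8 probe sets, those of Pde4c, Pde5a, the photoreceptor genes Pde6a, Pde6b, Pde6g and Pde6h, and the second ones of Pde8a and Pde8b.

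Pde7a, the closest relative of Pde7b and a cAMP-specific enzyme too, came nearest to a difference. It was at 0.35, 0.53, 0.09, 0.58, 0.63 and 0.62 on recuperated arrays 1 to 6, against 0.30, 0.00, 0.12, -0.03, 0.17 and 0.06 on control arrays 1 to 6. Of the recuperated arrays, 5 lay above every control, and array 3 lay among the controls. The log2 difference was 0.36 (95% interval 0.10 to 0.63), or 1.29-fold, short of the threshold, with limma P = 0.0108 and adjusted p = 0.999, and with an exact permutation p = 0.0108. Without recuperated array 4 it was 0.34. Under 4 of 18 other settings it reached 1.3-fold with P under 0.05: without the subtraction of array medians, and without recuperated array 1, recuperated array 3 or control array 1. It did not pass adjustment under any of the 18.

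The genes that make, carry and read cyclic nucleotides likewise held 0 calls in either direction, set against 1.20% higher and 1.27% lower over all probe sets. Of 8 measured adenylyl cyclases, which make cAMP, 2 had a positive difference (median -0.08), and Adcy2, which beta-gamma subunits of G proteins stimulate, was at 1.54 to 2.68 in recuperated rats, against 2.31 to 2.64 in controls. Its difference was -0.21, and -0.16 without recuperated array 4, -0.08 without recuperated array 5, which held the 1.54, and -0.10 with arrays weighted by quality. The 12 guanylyl cyclase and nitric oxide synthase genes had a median of 0.01, and 8 of them were below the array median on all 12 arrays. The 14 effectors, protein kinases A and G, Epac factors and cyclic nucleotide-gated channels, had a median of -0.03, and Prkaca, the main catalytic subunit of protein kinase A, was at 3.93 to 5.02 in recuperated rats, against 4.25 to 4.84 in controls. Its difference was -0.22, and -0.21 without recuperated array 4, -0.35 without recuperated array 1 and -0.13 without recuperated array 2.

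The 14 anchors and inhibitors of protein kinase A had a median of 0.03. Among them Pde4dip, or myomegalin, which tethers PDE4D, was at 0.73 to 1.65 in recuperated rats, against 0.75 to 1.13 in controls, with 5 of 6 recuperated arrays above every control, and its difference of 0.29, or 0.28 without recuperated array 4, did not pass (limma P = 0.0797, adjusted p = 0.999; exact permutation p = 0.0736). The 8 genes of the CREB pathway, through which cAMP reaches transcription, had a median of -0.04, and 3 of them had a positive difference. Ep300, with the smallest limma P of the list (0.264), differed by 0.17. Crem, which encodes a cAMP-inducible repressor, was at 0.40 to 1.81 in recuperated rats, against 1.41 to 1.68 in controls. The lowest of these was recuperated array 4, and its difference was -0.21 with that array and -0.04 without it. Calm2, the 1 calmodulin gene measured of 3, was at 5.20 to 5.64 in recuperated rats, against 5.30 to 5.69 in controls.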

How the data were processed

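Laser-captured ARC RNA of 12 rats was amplified, labelled and hybridised to Affymetrix rat genome arrays, each rat on its own array. Probe set values (31099) were deposited by the authors as log2, after RMA (background correction, quantile normalization, median polish), which the submitters' notes name with Affymetrix Expression Console. For both, the version is not given in the sources used here. Methods of the study describe 2 other summaries of the arrays, not used here.

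From the deposited log2 values, 57 control probe sets were set aside and each array's median over the other 31042 was subtracted. Groups were compared with limma 3.58.1 in R 4.3.3 (lmFit, eBayes, no covariates), with Benjamini-Hochberg adjustment over all 31042, and the study's cut-off, 1.3-fold at P under 0.05, was read from that fit. For single probe sets the arrays were also rearranged in every possible way (exact permutation test, two-sided), and correlations had a permutation test with 100000 resamples. Tables and plots were made with Python 3.11.15 (pandas 2.3.3, numpy 2.4.6, scipy 1.17.1, matplotlib 3.10.9). The fitting step was tested on simulated data.

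Names came from the platform annotation: 20826 probe sets had 1 symbol, 436 several and 9780 none. The members and lists were chosen with earlier results of these data known. Named genes were the 9 members, the other phosphodiesterases, some of the 4 smallest limma P of each pathway list, and the 3 genes most like Pde4a and like each member ranging over more than 2 log2 units. Calm2 is the only one measured of its list. Npy, Pomc, Nr5a1 and the medium spiny neuron markers were named from the marker lists after their values were seen. Of the other phosphodiesterases, Pde6c and Pde11a had no probe set with their symbol alone. Pde3b and Pde7b had no promoter in the table. Alternatives tried were unsubtracted array medians, quantile normalization, a filter on dim probe sets, array quality weights, the methods' t-test, means of linear values, averaging a gene's probe sets, a replicate block, and leaving out each array. The precision is limited by the number of arrays. Labels give a separate animal for each sample, and the study counts litters as n for the arrays, so p-values measure the spread between animals of separate litters.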

Additional observations from a re-analysis of the deposited data

Results flagged for a closer look

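In 3 of the 30 groups of 6 arrays examined, 1 array lay farther from the others than Dixon's limit for its group, where chance marks about 1 in 20 groups. Control array 4 had a Pde4a level of 0.55, against 0.24 to 0.34 on the other 5 control arrays. The same array had 2.84 at the probe set that the study lists as Pde4a, against 2.45 to 2.59 on the other controls. Recuperated array 5 had a level of -1.96 at the main Pde1c probe set, against -3.58 to -3.02 on the other recuperated arrays.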

How the results depend on the processing

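Across all probe sets the count at adjusted p under 0.05 was 0, and 0 to 1 as each array was left out (1 without recuperated array 2). At 1.3-fold with P under 0.05, 371 probe sets were higher and 395 lower: 118 and 150 with a filter on dim probe sets, 243 and 263 by the methods' t-test, 434 and 302 without subtraction of array medians, and 447 and 313 after quantile normalization. As each array was left out, the lower count ran from 352 to 622, the highest without recuperated array 1. No member was called under any of these alternatives. Differences near 0 changed sign. With array quality weights they were -0.13 for the second Pde4b probe set, -0.02 and -0.07 for the main and second Pde4d probe sets, and -0.10 for Pde1a. With means of linear values the main Pde1c probe set was at 0.02, and with the mean of all its probe sets Pde10a was at 0.08. Leaving out each array gave -0.23 to 0.01 for Pde10a, -0.28 to 0.29 for Pde1a, -0.29 to 0.04 and -0.16 to 0.05 for the main and second Pde1c probe sets, -0.04 to 0.19 for Pde2a, -0.28 to 0.02 for Pde3b, -0.19 to 0.30 for the second Pde4b probe set, and -0.13 to 0.10 and -0.05 to 0.18 for the main and second Pde4d probe sets. The cause was not tested. With the number shared by a recuperated and a control array as a replicate block, 452 probe sets were higher, 411 lower and 0 passed adjustment. Same-numbered arrays did not deviate together (r from -0.16 to 0.08, own number best for 1 of 6), so no pairing by number was seen. This check cannot exclude a pairing that leaves little trace in the values.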
